A study of Homo sapiens with 6 samples.

Results

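The genes described here are 40 human genes of glycolysis and of the response to low oxygen, out of 36601 genes in the files, named as a list and matched by symbol. They comprised 17 glycolytic enzymes, 4 transporters of glucose and lactate, 3 regulators of glycolytic flux, 4 genes of oxygen sensing and 12 other hypoxia targets, and each symbol matched 1 gene. Single-cell RNA-seq libraries came from retinal organoids, retina-like tissue grown from the WA09 human embryonic stem cell line that carries a CRX-tdTomato reporter (CRX is a photoreceptor transcription factor and tdTomato a red fluorescent protein). Organoids of day 113 to 126 were broken into fragments, which were either transplanted under the retina of normal dogs (3 libraries) or kept in culture (3 libraries) for 3 days. Both groups share the line and the reporter. The labels pair 1 transplanted with 1 cultured library in each of Sets 1 to 3. The series design text says that cultured controls came from the same organoid batch as the transplanted fragments of each independent experiment. Each Set is taken as 1 such experiment. All cells descend from 1 stem cell line, and p-values measure the spread between these Sets.

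Glycolysis splits glucose into pyruvate, which is turned into lactate or burnt in mitochondria. Photoreceptors are known to make lactate even with oxygen at hand, and Müller glia, the support cells of the retina, exchange fuel with them. When oxygen is low, prolyl hydroxylases such as those encoded by EGLN1 and EGLN3 no longer mark hypoxia-inducible factor for destruction. Its alpha subunits, encoded by HIF1A and EPAS1, then bind DNA at ACGTG-centred elements and raise the transcription of glycolytic enzymes and of many other genes.

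The ACGTG core was looked for on both strands in the 250 bases before the RefSeq start of each gene (build GRCh38.p14). A window was found for 35 of the 40 members, and 14 of these (40%) held the core, against 6501 of all 35116 windows (18.5%). All members are protein-coding and gave 1 window each, whereas the full set of windows was not limited in these ways. The shares are therefore not a like comparison. By role, 8 of 17 enzymes, 5 of 9 other hypoxia targets with a window, 1 of 4 oxygen-sensing genes, 0 of 3 flux regulators and 0 of 2 transporters held it. LDHA, HK2 and PGK1 are shown as enzymes whose windows hold several cores, ANKRD37 as a hypoxia target with several, and MXI1 because it was the member higher in the transplanted sample of every class and Set and has none in its window. Capitals mark the core on either strand, overlapping matches are merged, and all 5 windows lie on the plus strand. They are LDHA at chr11:18394313-18394562, HK2 at chr2:74833877-74834126, PGK1 at chrX:78103998-78104247, ANKRD37 at chr4:185396591-185396840 and MXI1 at chr10:110207355-110207604. A match describes letters and not a bound site, and binding was not measured here.
LDHA: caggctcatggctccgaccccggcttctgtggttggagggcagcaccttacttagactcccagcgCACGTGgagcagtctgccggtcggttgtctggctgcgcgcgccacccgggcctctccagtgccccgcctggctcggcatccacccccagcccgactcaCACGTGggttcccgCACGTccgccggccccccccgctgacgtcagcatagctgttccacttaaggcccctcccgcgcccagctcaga
HK2: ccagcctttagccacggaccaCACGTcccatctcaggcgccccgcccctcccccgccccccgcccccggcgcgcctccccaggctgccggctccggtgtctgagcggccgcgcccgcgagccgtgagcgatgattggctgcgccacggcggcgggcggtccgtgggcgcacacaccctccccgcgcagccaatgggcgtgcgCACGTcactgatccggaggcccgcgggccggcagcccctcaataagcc
PGK1: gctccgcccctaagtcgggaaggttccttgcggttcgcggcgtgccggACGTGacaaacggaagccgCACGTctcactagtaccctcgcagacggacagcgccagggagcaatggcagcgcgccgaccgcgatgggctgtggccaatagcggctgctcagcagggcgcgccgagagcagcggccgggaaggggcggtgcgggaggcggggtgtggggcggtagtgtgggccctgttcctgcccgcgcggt
ANKRD37: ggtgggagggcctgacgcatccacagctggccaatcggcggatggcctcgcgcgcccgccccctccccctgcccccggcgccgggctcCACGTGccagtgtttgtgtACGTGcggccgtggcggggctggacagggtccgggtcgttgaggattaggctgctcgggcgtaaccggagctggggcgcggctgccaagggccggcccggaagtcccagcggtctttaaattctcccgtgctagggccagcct
MXI1: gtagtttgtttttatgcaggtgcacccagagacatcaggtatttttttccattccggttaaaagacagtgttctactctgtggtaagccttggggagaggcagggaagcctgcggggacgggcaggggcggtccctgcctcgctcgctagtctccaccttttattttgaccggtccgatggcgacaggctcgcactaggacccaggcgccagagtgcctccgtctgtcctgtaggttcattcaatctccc

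Raw UMI counts (unique molecules, each a captured transcript) were summed per library over 4 classes of cells defined by marker UMIs. Rods had at least 3 UMIs of NRL, cones at least 3 of PDE6H and more than of NRL, Müller glia at least 3 of HES5, WIF1 and TTYH1 together, and amacrine cells at least 2 of TFAP2A and TFAP2B together. Of 43757 kept cells 24526 met a definition, and 6979 (28.5% of these) met more than 1. The share of a class that also met another definition was 60 to 69.2% in transplanted and 37.5 to 56.6% in cultured cones. In the same order it was 44.0 to 69.9% and 43.5 to 70.1% in Müller glia, 25.1 to 55.9% and 20.25 to 54.8% in rods. In amacrine cells it was 16.7 to 53.7% and 9.76 to 50.2%. Classes of a library thus share cells, and the class and Set pairs counted below are not independent. Results are therefore also given for exclusive classes, made of cells that met 1 definition only. Transplanted classes held 34 to 2953 cells and cultured classes 87 to 6381, and the smallest were transplanted cones of Set 2 (34 cells), transplanted amacrine cells of Set 2 (37 cells) and of Set 1 (41 cells). Total UMIs per library were 6850189 to 45281930 in transplanted and 8000032 to 108222149 in cultured libraries. The markers did not separate the classes fully. The cone marker list summed to 128 to 227 CPM (UMI counts scaled to 1000000 UMIs of the class) in transplanted and 313 to 732 CPM in cultured cones, but also to 90.1 to 199 CPM in transplanted and 230.1 to 647 CPM in cultured rods. The rod marker list summed to 125 to 389 CPM in transplanted and 120 to 334 CPM in cultured rods. In every Set it lay above the cone list in transplanted rods and under the cone list in cultured rods. The part of this shift in the results below was not tested. Horizontal-cell markers reached 826 CPM in transplanted and 1188 CPM in cultured amacrine-defined cells, so the class names below stand for the marker rule. Myeloid and red blood cell markers stayed at or under 6.69 CPM in transplanted and 11.7 CPM in cultured classes.

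Some libraries stood apart. The cultured library of Set 3 was the shallowest of the cultured ones, with a median of 2140 UMIs per kept cell. Genes named only by a clone identifier took a median of 1.999 to 2.86% of UMIs in the transplanted classes of Set 3, against 3.86 to 4.56% in its cultured classes. In Set 1 these shares were 0.599 to 0.786% in transplanted and 0.666 to 0.734% in cultured classes. The median mitochondrial share of UMIs was 2.44 to 4.66% in transplanted and 1.17 to 3.44% in cultured classes. Dividing-progenitor markers summed to 31.2 to 84.8 CPM in transplanted rods and 138 to 524 CPM in cultured rods. They were highest in the Müller-defined class, with 40.7 to 169 CPM in transplanted and 233 to 809 CPM in cultured samples. That class thus holds dividing cells besides glia, in its responses and in its cultured levels. Because dog reads can map to human genes, cells whose clone-named share was under the 1st percentile of cultured cells of their Set were also left out as an alternative. They made up 35.99% of Müller glia, 19.7% of cones, 9.65% of rods and 3.52% of amacrine cells in the transplanted library of Set 3. The part of these differences in the results below was not tested. In sums over a class, fewer expressing cells and less RNA per cell cannot be told apart.

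Transplanted over cultured, few members passed the test in any class. With edgeR's quasi-likelihood test across all genes, Set as a block and Benjamini-Hochberg adjusted p under 0.05, 801 of 20020 genes (4.0%) were called in rods, 90 of 17976 (0.501%) in cones, 572 of 19802 (2.89%) in Müller glia and 289 of 11445 (2.53%) in amacrine cells. Of the members, 39, 39, 39 and 36 passed the low-count filter in these classes in the same order. The call fell on 1 member in rods (NDRG1, higher), 0 in cones, 0 in Müller glia and 1 in amacrine cells (MXI1, higher). The members' share called was thus near or under that of all genes. At an unadjusted p under 0.05 by edgeR there were 8 members in rods, 9 in cones, 7 in Müller glia and 2 in amacrine cells, where 18.6%, 11.5%, 16.4% and 15.5% of all genes passed. DESeq2 with the same block called 2 members in rods (NDRG1 and MXI1) and 0 in each of the other classes, while it called 4.61% of all genes in rods, 0.957% in cones, 3.38% in Müller glia and 1.17% in amacrine cells. Without the block, no gene was called in any class, while 573 genes in rods, 320 in cones, 525 in Müller glia and 250 in amacrine cells had an unadjusted p under 0.05.

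**Figure D1:**
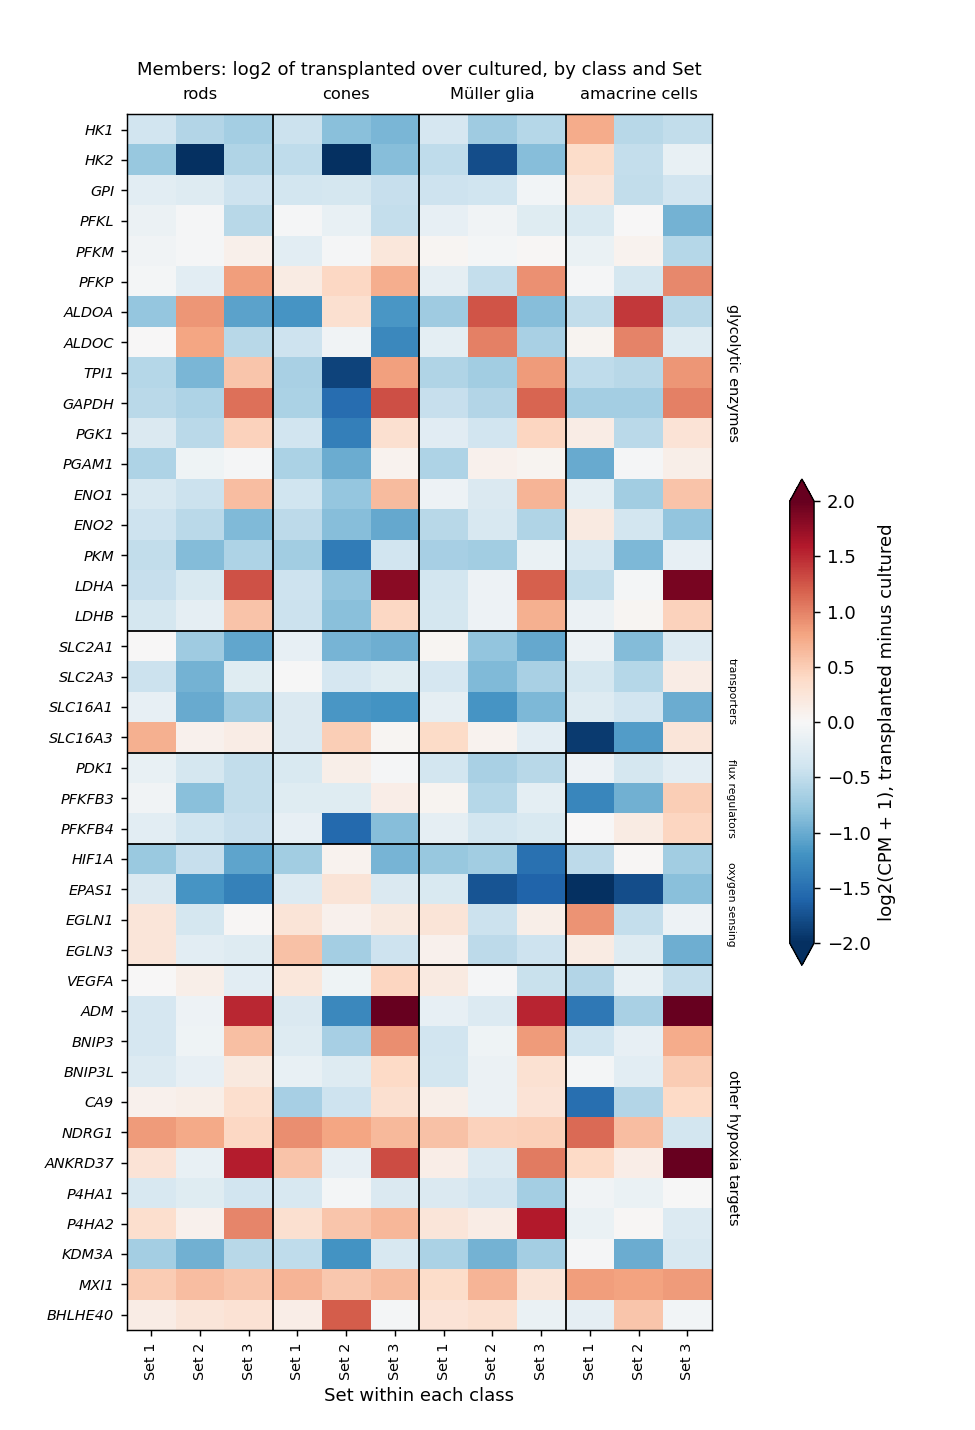
Log2(CPM + 1) in the transplanted minus the cultured sample of each Set, for the 40 members (rows, by role) in the 4 classes (column blocks); the colour scale ends at −2 and 2 and no error is drawn. MXI1 was higher in all 12 class and Set pairs and NDRG1 in 11, whereas TPI1, GAPDH, ENO1 and LDHA were lower in Sets 1 and 2 and higher in Set 3.

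Of the genes of oxygen sensing, none passed the test, and the alpha subunits lay lower in most transplanted samples. HIF1A, the subunit found in most cell types, had 114, 98.8 and 116 CPM in transplanted Müller glia of Sets 1 to 3, against 194, 160.2 and 328 CPM in cultured ones. All transplanted values were under all cultured ones, with a log2 fold change of −0.77 ± 0.30 (SE, n = 3 Sets) and an edgeR adjusted p of 0.203. EPAS1, the other alpha subunit, had 2.50, 5.63 and 9.13 CPM in transplanted rods and 3.28, 13.98 and 24.8 CPM in cultured rods. The transplanted value was the lower in each Set although the groups overlapped, and the log2 fold change was −0.88 ± 0.26 (edgeR adjusted p = 0.0746). In Müller glia EPAS1 had 3.08, 3.22 and 8.33 CPM in transplanted and 4.02, 12.98 and 27.4 CPM in cultured samples, a log2 fold change of −1.06 ± 0.32 (edgeR adjusted p = 0.0843). EPAS1 passed the threshold in rods without Set 1 (−1.12, edgeR adjusted p = 0.0322) and with cells of low clone-named share left out (−0.88, edgeR adjusted p = 0.0451). In exclusive classes it was −0.46 in rods and −0.29 in Müller glia, neither past the threshold (edgeR adjusted p = 0.460 and 0.999). EGLN1 and EGLN3, the hydroxylases, went both ways across classes and Sets. The median log2 fold change of the tested genes of this role was −0.25 in rods, −0.01 in cones, −0.42 in Müller glia and −0.28 in amacrine cells, against −0.02, −0.03, −0.01 and −0.01 over all genes tested.

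The transporters also gave no call. SLC16A1, a monocarboxylate transporter that carries lactate, was lower in the transplanted sample in all 12 class and Set pairs. In cones it had 63.1, 55.3 and 61.6 CPM in transplanted and 77.2, 125 and 143 CPM in cultured samples, so that the groups did not overlap (−0.80 ± 0.26, edgeR adjusted p = 0.238). In amacrine cells it had 59.5, 57.6 and 41.1 CPM in transplanted and 71.3, 75.7 and 83.1 CPM in cultured samples (−0.46 ± 0.25, edgeR adjusted p = 0.389). SLC2A1, the main glucose transporter of photoreceptors and of blood-retina barriers, had 119.5, 70.1 and 75.6 CPM in transplanted rods and 119, 116 and 157 CPM in cultured rods. Its Sets 2 and 3 were lower and its Set 1 nearly equal (−0.42 ± 0.25, edgeR adjusted p = 0.390). The median log2 fold change of the transporters lay between −0.41 and −0.34 in the 4 classes. In exclusive classes it was −0.19 in rods, −0.35 in cones, −0.02 in Müller glia and −0.09 in amacrine cells.

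None of the 17 enzymes passed the test in any class. HK2, the inducible hexokinase that starts glycolysis, came closest, and was lower in the transplanted sample of every Set in rods, cones and Müller glia. It had 2.65, 3.25 and 9.16 CPM in transplanted rods, against 5.15, 16.5 and 14.3 CPM in cultured rods (−1.06 ± 0.33, edgeR adjusted p = 0.0910). In cones the values were 3.56, 3.69 and 10.1 CPM in transplanted and 5.47, 30.3 and 18.9 CPM in cultured samples (−1.01 ± 0.37, edgeR adjusted p = 0.309). In Müller glia they were 2.88, 3.81 and 6.78 CPM in transplanted and 4.50, 15.4 and 13.03 CPM in cultured samples (−0.93 ± 0.32, edgeR adjusted p = 0.145). The groups overlapped in all 3 classes, and in exclusive Müller glia the log2 fold change was −0.03. Without Set 2 the changes were −0.61 in rods, −0.63 in cones and −0.57 in Müller glia. HK1, the constitutive hexokinase, had 58.0, 60.8 and 99.5 CPM in transplanted cones and 78.8, 109 and 189 CPM in cultured cones (−0.66 ± 0.25, edgeR adjusted p = 0.322). ALDOA, an aldolase, had 5.57, 11.1 and 9.68 CPM in transplanted cones and 13.9, 8.66 and 22.8 CPM in cultured cones (−0.93 ± 0.34, edgeR adjusted p = 0.301), with Set 2 the other way. ALDOA shares 42.3% of its exon bases with an annotated gene on the same strand, AC093512.2, so its counts are uncertain.

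PKM, pyruvate kinase, had 527, 351 and 314 CPM in transplanted rods and 744, 638 and 482 CPM in cultured rods, and it was lower in the transplanted sample in all 12 class and Set pairs. The fitted change did not pass the test (−0.49 ± 0.34 in rods, edgeR adjusted p = 0.469). Set 3 turned other enzymes round. GAPDH, the dehydrogenase of the middle of the pathway, had 1035, 950.2 and 671 CPM in transplanted rods and 1497, 1459 and 312 CPM in cultured rods. LDHA, which makes lactate from pyruvate, had 115, 83.3 and 57.3 CPM in transplanted rods and 158, 103 and 23.2 CPM in cultured rods. The cultured sample of Set 3 was the lowest of the 6 for both genes. Of the 36 members that passed the filter in all 4 classes, 7 (19.4%) were lower in the transplanted sample in every class of Sets 1 and 2 and higher in every class of Set 3, against 380 of 11427 genes (3.33%). They were TPI1, GAPDH, ENO1, LDHA, ADM, BNIP3 and BNIP3L, and this pattern was picked after the values were seen. The Müller glia marker list moved the same way in rods, with 3532, 3020 and 1676 CPM in transplanted and 3747, 3890 and 1022 CPM in cultured samples of Sets 1 to 3, likewise in cones and amacrine cells. In Müller-defined cells it was higher in transplanted samples of Sets 1 and 3 and lower in Set 2. Its part in the pattern was not tested.

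Leaving out Set 3 changed the account of cones. Then 607 of 17683 genes (3.43%) were called in cones, against 90 with all Sets, and 6 members were among them. TPI1, triose phosphate isomerase, fell by 1.31 on the log2 scale (edgeR adjusted p = 0.00565), PKM by 1.10 (0.0167), GAPDH by 1.14 (0.0298), HK2 by 1.24 (0.0391) and PGK1, a kinase that yields ATP, by 0.89 (0.0434), each an edgeR adjusted p. NDRG1 rose by 0.84 (edgeR adjusted p = 0.0497). This fit held only Sets 1 and 2. No member was called in cones without Set 1 or without Set 2, where the change of TPI1 was −0.43 and 0.21. With all Sets, TPI1 had 701, 300.5 and 546 CPM in transplanted cones and 1105, 1086 and 311 CPM in cultured cones. The transplanted value was thus lower in Sets 1 and 2 and higher in Set 3, and the fitted change was −0.52 ± 0.55 (edgeR adjusted p = 0.780). The transplanted cones of Set 2 were 34 cells.

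**Figure D2:**
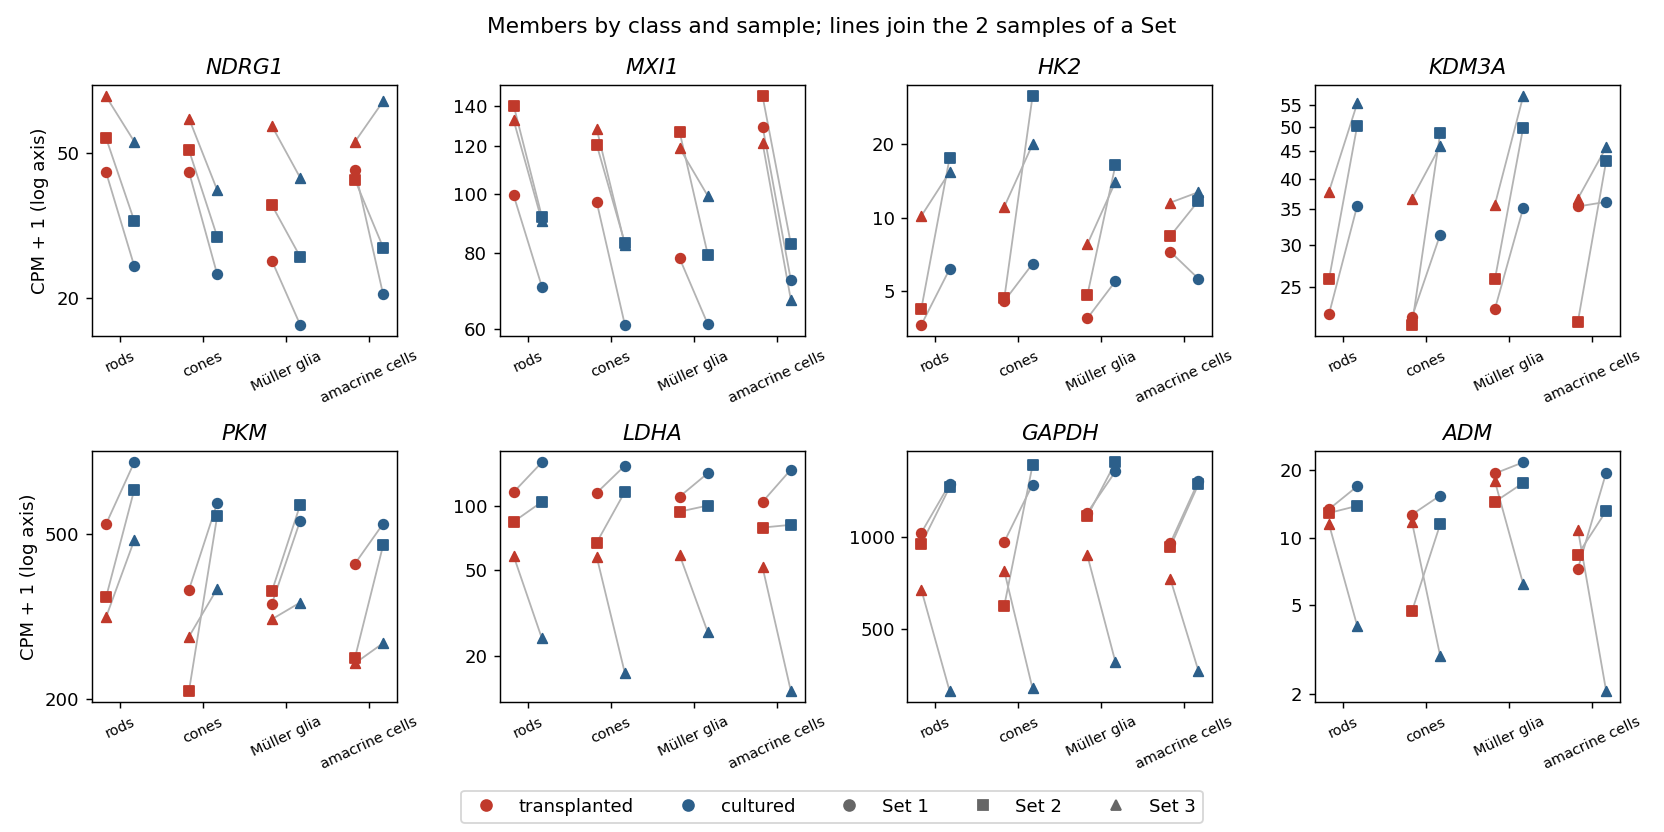
CPM + 1 (log axis) of 8 members in each class, with transplanted samples in red left of cultured samples in blue; symbols mark the Set, lines join the samples of a Set, and no error is drawn. MXI1 is higher in transplanted samples along every line, PKM and KDM3A are lower along every line, and GAPDH, LDHA and ADM are lower in Sets 1 and 2 and higher in Set 3.

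The flux regulators had small changes. PDK1, which holds pyruvate back from mitochondria, and PFKFB3 and PFKFB4, which make the activator of phosphofructokinase, gave a median log2 fold change of −0.21 in rods, −0.09 in cones, −0.10 in Müller glia and −0.10 in amacrine cells. PFKFB3 had 3.23, 7.14 and 9.36 CPM in transplanted rods and 3.44, 13.5 and 13.5 CPM in cultured rods, a fitted change of −0.34 ± 0.26 (edgeR adjusted p = 0.522). No flux regulator passed the test in any class.

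The other hypoxia targets held both called members. NDRG1, a stress-responsive gene that hypoxia-inducible factor raises in many cell types (chr8:133237171-133302022, GRCh38), had 43.2, 53.9 and 70.4 CPM in transplanted rods and 23.4, 31.5 and 52.7 CPM in cultured rods. The transplanted sample was higher in each Set, although the highest cultured value lay within the transplanted range. The gene rose by 0.86 ± 0.19 on the log2 scale (SE, n = 3 Sets, edgeR adjusted p = 0.0280). The call held in exclusive rods (1.14, edgeR adjusted p = 0.00586), without Set 3 (0.88, 0.0440) and with cells of low clone-named share left out (0.86, 0.0109). It was lost without Set 1 (0.84, edgeR adjusted p = 0.0908) and without Set 2 (0.84, 0.0856). In cones NDRG1 had 43.3, 49.8 and 61.0 CPM in transplanted and 22.2, 28.4 and 38.5 CPM in cultured samples, with no overlap (0.88 ± 0.23, edgeR adjusted p = 0.124). In Müller glia it had 24.2, 34.9 and 58.1 CPM in transplanted and 15.9, 24.9 and 41.7 CPM in cultured samples (0.73 ± 0.21, edgeR adjusted p = 0.0744). The Müller value was 0.18 in exclusive classes (edgeR adjusted p = 0.999), where that class is free of cells that also met another definition. In amacrine cells the values were 43.9, 41.2 and 52.6 CPM in transplanted and 19.4, 26.5 and 68.2 CPM in cultured samples, and Set 3 ran the other way (0.48 ± 0.29, edgeR adjusted p = 0.447).

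MXI1, which encodes an antagonist of MYC (chr10:110207605-110287365, GRCh38), was the most even member. In amacrine cells it had 128, 144 and 120.5 CPM in transplanted and 71.3, 82.0 and 66.1 CPM in cultured samples, with no overlap. It rose by 0.96 ± 0.24 on the log2 scale (SE, n = 3 Sets, edgeR adjusted p = 0.0340). This call was lost in exclusive amacrine cells (1.14, edgeR adjusted p = 0.925), where Set 1 is missing for want of cells, with DESeq2 (0.95, adjusted p = 0.112), without Set 1 (1.03, edgeR adjusted p = 0.0996) and without Set 2 (0.92, 0.321). In rods MXI1 had 98.6, 139 and 131 CPM in transplanted and 69.4, 90.8 and 89.3 CPM in cultured samples, again with no overlap (0.73 ± 0.24, edgeR adjusted p = 0.110). In cones it had 96.2, 119.8 and 127 CPM in transplanted and 59.9, 82.1 and 81.6 CPM in cultured samples (0.69 ± 0.25, edgeR adjusted p = 0.298). In Müller glia it had 77.4, 126 and 118 CPM in transplanted and 60.0, 78.5 and 98.4 CPM in cultured samples, and here the groups overlapped (0.65 ± 0.26, edgeR adjusted p = 0.220). MXI1 was the 1 member higher in the transplanted sample in all 12 class and Set pairs, in classes as defined and in exclusive classes alike, the pairs with 13 and 19 transplanted cells included. Of the 11427 genes that passed the filter in all classes, 4.66% were higher in all 12 pairs.

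KDM3A, a histone demethylase that hypoxia is known to raise, ran the other way. It had 21.3, 24.9 and 36.8 CPM in transplanted rods and 34.6, 49.3 and 54.3 CPM in cultured rods (−0.58 ± 0.20, edgeR adjusted p = 0.135). In Müller glia it had 21.8, 24.9 and 34.7 CPM in transplanted and 34.2, 48.8 and 56.0 CPM in cultured samples (−0.56 ± 0.22, edgeR adjusted p = 0.208). In amacrine cells it had 34.5, 20.6 and 35.7 CPM in transplanted and 35.2, 42.1 and 44.8 CPM in cultured samples (−0.39 ± 0.28, edgeR adjusted p = 0.544). KDM3A was lower in the transplanted sample in all 12 pairs, as were PKM, SLC16A1 and P4HA1, a collagen prolyl hydroxylase subunit. In exclusive classes these directions were less even, with KDM3A higher in the transplanted sample in 4 pairs, P4HA1 in 5, SLC16A1 in 2 and PKM in 1. Of all genes that passed in every class, 10.3% were lower in all 12 pairs. The median change over all genes tested was itself −0.32 to −0.17 in Set 3 and −0.18 to −0.00467 in Set 2 on the log2(CPM + 1) scale. Relative to that median, SLC16A1 and KDM3A stayed lower in 12 pairs, while PKM and P4HA1 were lower in 10, and MXI1 stayed higher in 12.

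P4HA2, a paralogous collagen hydroxylase subunit, had 19.6, 19.9 and 18.9 CPM in transplanted rods and 15.3, 18.7 and 9.10 CPM in cultured rods, with no overlap (0.61 ± 0.24, edgeR adjusted p = 0.188). ANKRD37, a short-lived hypoxia-induced ankyrin protein, had 12.5, 15.6 and 19.8 CPM in transplanted amacrine cells and 9.25, 14.1 and 3.20 CPM in cultured ones (0.96 ± 0.43, edgeR adjusted p = 0.287). Leaving out a Set gave 0.33 to 1.64 in amacrine cells. In rods it passed the threshold without Set 2 (1.06, edgeR adjusted p = 0.0134) but was 0.13 without Set 3 (edgeR adjusted p = 0.769). ANKRD37 overlaps UFSP2 on the opposite strand, and strand use in the counting is not given in the sources used here. ADM, a vasodilator peptide, had 12.4, 11.9 and 10.5 CPM in transplanted rods and 16.0, 12.9 and 3.03 CPM in cultured rods, lower in Sets 1 and 2 and higher in Set 3. VEGFA, the vascular growth factor, had 22.96, 12.98 and 25.8 CPM in transplanted rods and 22.8, 11.9 and 30.1 CPM in cultured rods (0.13 ± 0.19, edgeR adjusted p = 0.767). BNIP3, a mitophagy receptor, had 96.2, 74.0 and 99.8 CPM in transplanted rods and 122, 78.2 and 65.1 CPM in cultured rods. CA9, a carbonic anhydrase used as a hypoxia marker, did not pass the low-count filter in any class.

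Set against each other within a Set, the enzymes lay under the other hypoxia targets. The median log2(CPM + 1) difference, transplanted minus cultured, over the 17 enzymes was taken and that over the targets that passed the filter (11, or 10 in amacrine cells) subtracted. In rods the result was −0.39, −0.23 and −0.43 in Sets 1 to 3, a mean of −0.35 ± 0.108 (SD, n = 3 Sets). In cones it was −0.55, −0.74 and −0.56, a mean of −0.62 ± 0.106. In Müller glia it was −0.49, −0.24 and −0.28, a mean of −0.34 ± 0.134, and in amacrine cells −0.08, −0.23 and −0.39, a mean of −0.23 ± 0.159. All 12 values were negative, although they come from 3 Sets and from classes that share cells. No test was made of this contrast, since the lists were chosen with results of these data known. The lists moved against zero in a different way in each Set. In rods the enzyme median was −0.38, −0.31 and −0.02 and the target median 0.01, −0.08 and 0.41 in Sets 1 to 3. The median over all genes tested in rods was 0, −0.13 and −0.32 in the same order. In Set 3 the enzymes were thus near zero but above the median of all genes, and in Sets 1 and 2 they were under it. The targets were above the median of all genes in each Set.

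**Figure D3:**
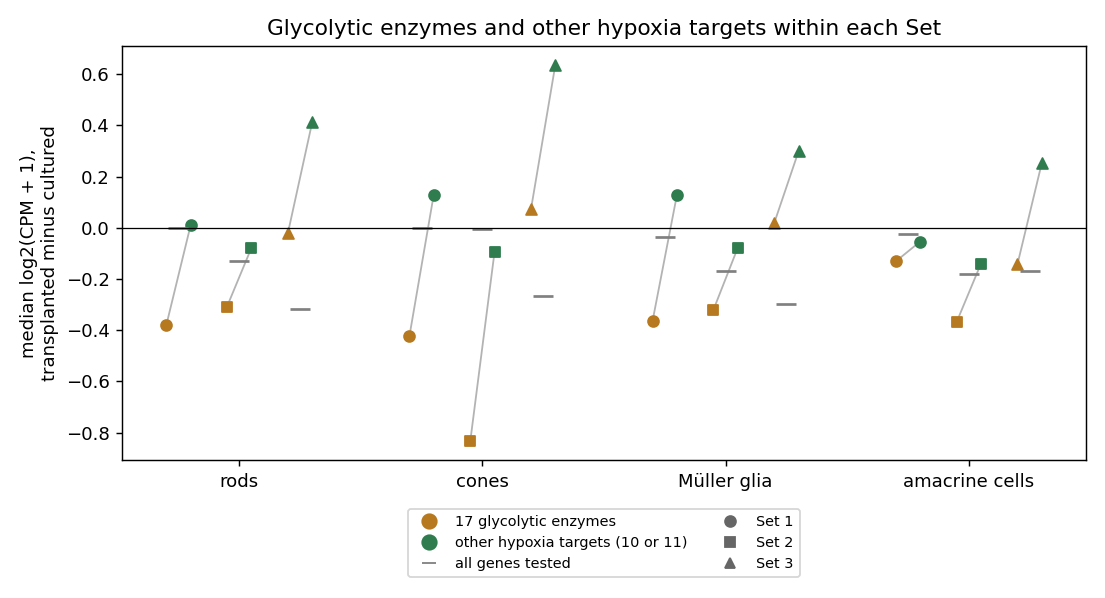
Median log2(CPM + 1), transplanted minus cultured, of the 17 glycolytic enzymes (brown), of the other hypoxia targets (green) and of all genes tested (grey dashes) for each class and Set; lines join the medians of a Set and no error is drawn. The enzyme median lies under the target median along all 12 lines.

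The contrast rested in part on which cells and genes were taken. In exclusive classes it was −0.29, −0.74 and −0.60 in rods, −0.57 and −1.10 in cones (Sets 1 and 3), and −0.37, −0.85 and 0.53 in Müller glia, where Set 3 was positive. Exclusive amacrine cells gave −0.97 and 0.02 in Sets 2 and 3. Against all 23 members that are not enzymes, the mean over Sets was −0.05 in rods, −0.30 in cones, 0.01 in Müller glia and −0.07 in amacrine cells, with transporters and sensing genes, which also lay low, among them. With cells of low clone-named share left out, all 12 values stayed negative, with means of −0.42 in rods, −0.66 in cones, −0.39 in Müller glia and −0.22 in amacrine cells. As sums, the enzymes took 3844, 3287 and 2957 CPM in transplanted rods and 5319, 4925 and 2605 CPM in cultured rods. The target sums were 513, 540.1 and 611 CPM in transplanted rods and 535.3, 521.2 and 497.5 CPM in cultured rods. The enzyme sum was lower in transplanted rods in Sets 1 and 2 and higher in Set 3. The target sum was lower in transplanted rods in Set 1 and higher in Sets 2 and 3.

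The classes could be told apart in their response for 1 member. The response in cones minus that in rods was called for 24 of 21807 genes (0.110%), that in Müller glia minus rods for 6 (0.0275%) and that in amacrine cells minus rods for 33 (0.151%). ALDOC, the aldolase of neurons and glia (chr17:28573115-28577264, GRCh38), had 22.9, 23.97 and 34.0 CPM in transplanted cones and 30.9, 25.1 and 84.2 CPM in cultured cones. In rods it had 20.9, 40.2 and 37.7 CPM in transplanted and 20.7, 22.8 and 55.7 CPM in cultured samples. It was lower in transplanted cones in each Set, and in rods higher in Set 2, nearly equal in Set 1 and lower in Set 3. The difference of the log2 responses was −0.61 ± 0.12 (edgeR adjusted p = 0.0204). Cells that met both definitions were counted in both sums, and the fit took no account of these shared cells. Its SE and p therefore do not measure a spread between separate cells. In exclusive classes the difference was −1.35 ± 0.36 and did not pass (edgeR adjusted p = 0.117). No other member differed past the threshold between any class and rods. In exclusive classes ENO1, an enolase, did so for Müller glia minus rods (1.04, edgeR adjusted p = 0.00894), against 0.17 when cells of several classes were kept. There 507 of 17270 genes (2.94%) were called.

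Between classes of cultured cells more members were called than between transplanted and cultured cells, and exclusive classes are used here. In Müller glia over rods 14 of 39 members were called, against 5001 of 17457 genes (28.6%), and in amacrine cells over rods 20 of 39, against 4582 genes (26.2%). In cones over rods 1 member was called, against 966 genes (5.53%). Of these, 10 in Müller glia, 16 in amacrine cells and the 1 in cones were also called when cells of several classes were kept. With such cells kept, 11 members were called for Müller glia and leaving out a Set gave 1 to 10. For amacrine cells the count was 19, with 6 to 19 on leaving out a Set. For cones it was 11, with 1 to 8, the fewest each time without Set 2. Over all genes, 5544 of 22484 were called for amacrine cells in that fit. With cells of low clone-named share also left out, 11 members were called for Müller glia, 19 for amacrine cells and 11 for cones. The counts over all genes were then 3790, 5563 and 1970 of 22482, in the same order. How many of all genes were called in both ways was not counted. The members called in both ways are the ones described. With cells of several classes kept, the differences over rods were smaller on the log2 scale. They were −0.30 for PKM and −0.32 for ALDOC in Müller glia, −0.70 for PKM in amacrine cells and 0.72 for HK2 in cones.

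Müller glia had less of 5 members than rods, among them the enzymes PKM, ENO2 and ALDOC, and more of 5 others. PKM had 429, 338 and 232 CPM in cultured Müller glia of Sets 1 to 3, against 989.9, 708 and 573 CPM in cultured rods. ENO2, the neuronal enolase, had 60.1, 58.6 and 102 CPM in Müller glia and 197, 272 and 404 CPM in rods. ALDOC had 6.20, 5.04 and 6.81 CPM in Müller glia and 23.96, 28.6 and 54.7 CPM in rods. For these 3 enzymes the groups did not overlap, and the log2 differences were −1.13 ± 0.17 for PKM (edgeR adjusted p = 5.03e-05), −1.90 ± 0.16 for ENO2 (4.67e-08) and −2.15 ± 0.24 for ALDOC (1.71e-06). HK1 (−1.19) and NDRG1 (−1.43) were also lower. ENO1 (0.59), GAPDH (0.63), SLC2A3, a neuronal glucose transporter (0.69), PFKFB3 (1.01) and ADM (1.33) were higher in Müller glia. ADM had 26.9, 32.5 and 6.81 CPM in Müller glia and 17.1, 9.27 and 2.76 CPM in rods, higher within each Set (SE 0.289, edgeR adjusted p = 0.00142). The exclusive cultured Müller glia of Set 3 were 31 cells. The 6.81 CPM of ADM and of ALDOC there thus rests on very few UMIs.

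Amacrine cells had lower levels than rods for 15 of their 16 members called in both ways. TPI1 had 518, 269 and 137 CPM in cultured amacrine cells and 1195, 1180.0 and 443 CPM in cultured rods, a log2 difference of −1.80 ± 0.19 (edgeR adjusted p = 2.79e-07). PKM had 437, 179.7 and 137 CPM in amacrine cells and 989.9, 708 and 573 CPM in rods, a difference of −1.83 ± 0.18 with no overlap (edgeR adjusted p = 1.17e-07). Lower members included LDHA (−1.26), SLC2A1 (−1.26), SLC16A1 (−1.51), ALDOC (−1.89), EPAS1 (−2.10) and ANKRD37 (−2.42). PFKFB3 was the 1 higher, with 12.5, 28.5 and 33.8 CPM in amacrine cells and 3.11, 9.96 and 18.2 CPM in rods, a difference of 1.33 ± 0.31 (edgeR adjusted p = 0.00232). Cones had more HK2 than rods, with 6.51, 43.1 and 20.3 CPM in cones and 5.14, 12.98 and 13.3 CPM in rods, a difference of 1.18 ± 0.29 (edgeR adjusted p = 0.0160). Their HK2 was higher within each Set, although the groups overlapped. With cells of several classes kept, the difference without Set 2 was 0.204 and no longer past the threshold.

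**Figure D4:**
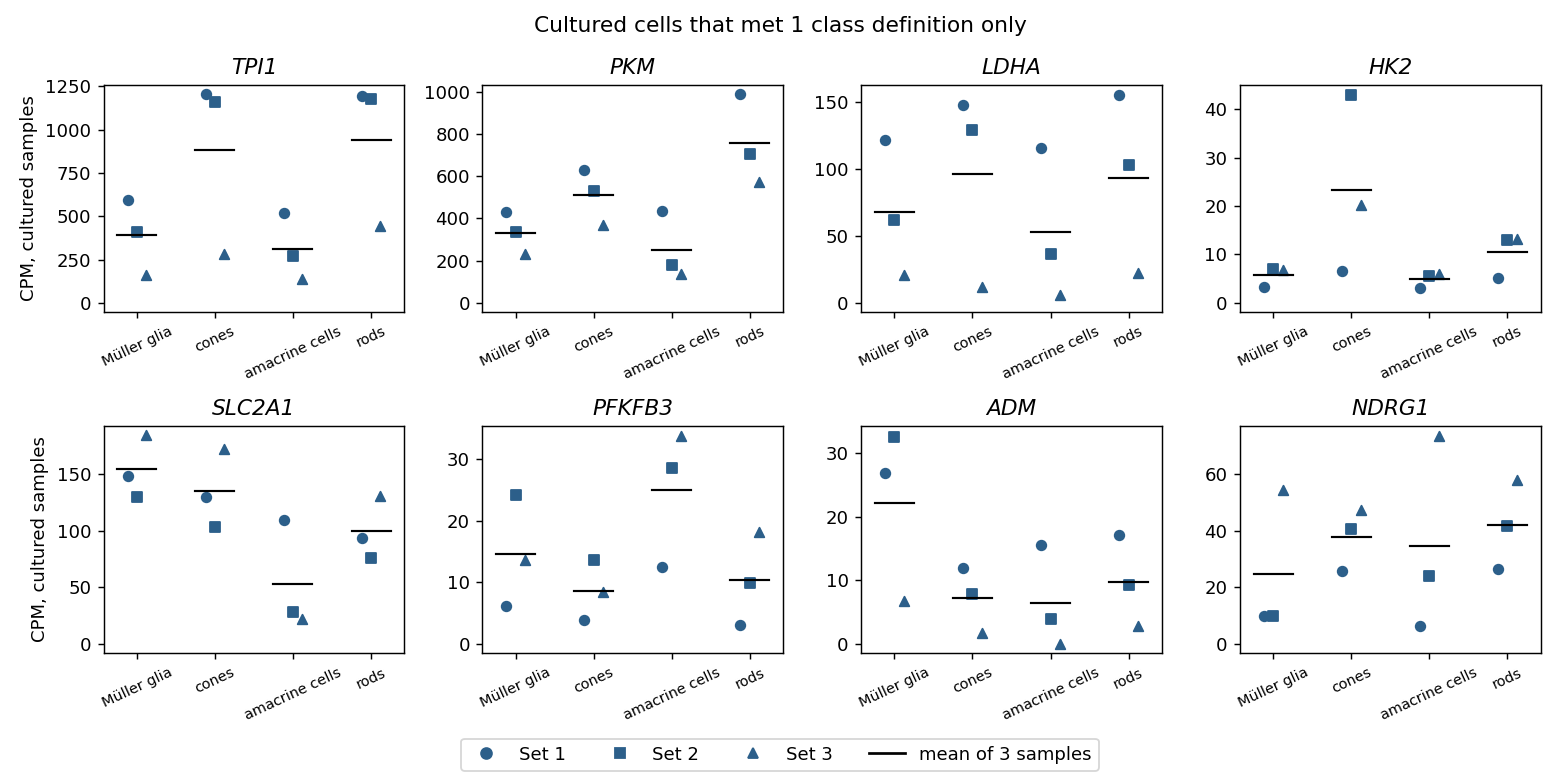
CPM of 8 members in cultured cells that met 1 class definition only, for Müller glia, cones and amacrine cells left of rods; symbols mark the Set and the line is the mean of 3 samples. TPI1 and PKM sit lower in Müller glia and amacrine cells than in rods. For TPI1 in Müller glia the call was lost with cells of several classes kept (−0.22, edgeR adjusted p = 0.0679). ADM is higher in Müller glia within each Set, where Set 3 has 31 Müller glia and very few UMIs of ADM.

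Other genes of the pathway were read from lists of 15 further glycolysis genes and 26 further hypoxia genes. No further glycolysis gene passed the test in any class. Of the further hypoxia genes 2 of 26 were higher in transplanted rods, 2 of 26 in Müller glia, 3 of 17 in amacrine cells and 0 of 25 in cones. HIF3A, a paralogue whose products can restrain hypoxia-inducible factor, had 23.9, 22.9 and 26.7 CPM in transplanted rods and 8.99, 10.2 and 11.6 CPM in cultured rods. It rose by 1.42 ± 0.20 on the log2 scale in rods (edgeR adjusted p = 0.00332), by 1.61 ± 0.23 in Müller glia (0.00129) and by 1.40 ± 0.35 in amacrine cells (0.0349), each an edgeR adjusted p. All transplanted values of HIF3A lay above all cultured ones in these 3 classes. TXNIP, which restrains glucose uptake, had 130.2, 160.1 and 144 CPM in transplanted rods and 80.4, 64.2 and 37.0 CPM in cultured rods. It rose by 1.47 ± 0.31 in rods (edgeR adjusted p = 0.0195), by 1.49 ± 0.30 in Müller glia (0.0117) and by 1.73 ± 0.25 in amacrine cells (0.000462). In cones it had 154, 164 and 173 CPM in transplanted and 70.9, 68.6 and 43.7 CPM in cultured samples (1.49 ± 0.31, edgeR adjusted p = 0.0555), short of the threshold. In exclusive classes HIF3A passed in rods (edgeR adjusted p = 0.0147) and Müller glia (0.00915), and TXNIP in rods (0.0159) but not in Müller glia (0.0700) or amacrine cells (0.925).

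In amacrine cells DDIT4, a stress-induced inhibitor of mTORC1, had 132, 95.5 and 91.1 CPM in transplanted and 80.5, 59.2 and 25.6 CPM in cultured samples. It rose by 1.14 ± 0.27 on the log2 scale (edgeR adjusted p = 0.0259) with no overlap. In exclusive amacrine cells DDIT4 did not pass (edgeR adjusted p = 0.925). There 0 genes passed the edgeR test and 487 had an unadjusted p under 0.05.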

How the data were processed

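The authors deposited raw UMI counts per gene and cell barcode for each of the 6 10x 3′ libraries, from Cell Ranger 6.0.2 (Set 1) and 7.1.0 (Sets 2 and 3), per the file headers, on GRCh38, per the submitters' processing notes. Barcodes with at least 1000 UMIs, 500 genes and at most 20% mitochondrial UMIs were kept. Libraries shared at most 54 barcodes. No doublet caller was run, and cells that met several class definitions were left out as an alternative instead. Counts were summed per library and class and tested with edgeR 4.0.16 in R 4.3.3 (quasi-likelihood test, TMM, filterByExpr, Benjamini-Hochberg adjusted p under 0.05), and the fits were tested on simulated data. The Set was a block because the design text gives each Set 1 organoid batch, and deviations of the pair of libraries of a Set correlated at 0.316 to 0.921 across genes. Class differences were fitted with the library as a block. Cells that met several definitions were counted in each of their classes there, except in exclusive classes. DESeq2 1.42.0 was an alternative. Promoter windows came from RefSeq and positions from GENCODE v29, which matched 34616 of 36601 gene IDs.

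Members, lists, classes and tests were chosen with earlier results of these data known. Values per sample were given for called members and, in a class with under 6, for those of smallest unadjusted p up to 6, as well as for further members picked after their values were seen. A few results for genes outside the 40 members are not reported here.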

Additional observations from a re-analysis of the deposited data

Results flagged for a closer look

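ALDOC, an aldolase, had a response in cones that differed from that in rods by −0.61 ± 0.12 on the log2 scale, by a test of the difference itself (edgeR adjusted p = 0.0204). Fitted within each class, its log2 response, transplanted over cultured, was −0.60 in cones and 0.25 in rods. Cells that met both class definitions were counted in both sums, which the fit of the difference took no account of. The difference was past the threshold without Set 2 (edgeR adjusted p = 0.00455) and with cells of low clone-named share left out (0.0307). It was not without Set 1 (edgeR adjusted p = 0.432), without Set 3 (0.550), with thresholds raised (0.101) or in exclusive classes (0.117).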

How the results depend on the processing

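Without the Set block the counts of genes called were 0 in rods, 0 in cones, 0 in Müller glia and 0 in amacrine cells, those of members called 0 in rods and 0 in amacrine cells, those of responses that differ from rods 0 for each class, and those of cultured levels that differ from rods 0 for cones, 0 for Müller glia and 1 for amacrine cells. Leaving out each Set in turn gave 400 to 1015 genes in rods, 28 to 607 in cones, 373 to 576 in Müller glia and 81 to 755 in amacrine cells, with 0 to 6 members in cones, 0 to 1 in Müller glia and 0 to 1 in amacrine cells. The same gave 1 to 77 (cones), 0 to 16 (Müller glia) and 15 to 180 (amacrine cells) responses that differ from rods, and 505 to 1909, 853 to 4238 and 1677 to 4835 levels that differ, in the same order. Without the low-count filter 1328 genes and 2 members (NDRG1 and HK2) were called in rods, 437 genes in cones, 887 genes and 1 member (EPAS1) in Müller glia and 0 members in amacrine cells, and 0 responses differed from rods in any class. With low clone-named cells left out, chosen after seeing the data, there were 1287 genes and 2 members in rods (NDRG1 and EPAS1), 334 genes in cones, and 958 genes and 2 members (NDRG1 and EPAS1) in Müller glia. DESeq2 called 2 members in rods, 172 genes in cones, and 134 genes and 0 members in amacrine cells, and RLE factors gave 137 genes in cones. Exclusive classes gave 26 genes in cones, 67 in Müller glia and 0 genes and 0 members in amacrine cells, 11, 507 and 57 responses that differ from rods for cones, Müller glia and amacrine cells, and 966 levels that differ for cones. Thresholds raised by 2 UMIs gave 0 genes and 0 members in amacrine cells.

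The enzyme minus target contrast was −0.54 in rods, −0.83 in cones and −0.47 in amacrine cells in exclusive classes. It was −0.0487 in rods, −0.30 in cones and 0.00863 in Müller glia against all 23 other members, −0.50 in cones with a pseudocount of 10 CPM, −0.18 in Müller glia as summed CPM, and −0.52 in amacrine cells with raised thresholds. Leaving out each Set, with the filter reapplied, gave −0.41 to −0.33 in rods, −0.65 to −0.56 in cones, −0.38 to −0.26 in Müller glia and −0.19 to −0.0439 in amacrine cells. Among named members, the response of NDRG1 in exclusive amacrine cells turned to −0.23 (edgeR adjusted p = 0.970), that of ALDOC in amacrine cells without Set 2 to −0.0704 (0.983), and without Set 3 it was 0.988, and the level of P4HA2 in cultured amacrine cells without Set 2 to 0.0398 (0.964), and without Set 3 it was −0.548. Of the other values for single members, 650 kept their direction and side of the threshold, 135 lost a call, 10 gained one and 16 moved. Exclusive cones lacked Set 2 (13 transplanted cells), and exclusive amacrine cells (19 transplanted cells) and those with raised thresholds lacked Set 1. The causes of these shifts were not tested. With 3 Sets and classes of down to 34 cells, or 25 in the exclusive classes tested, members at a few CPM were not measured closely enough to show modest differences. DESeq2 was not run for the comparisons between classes.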
